A study of Mus musculus with 9 samples.

Results

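The 10 genes described here encode the main heat shock proteins of the mouse cytosol and mitochondria, and they were taken by symbol from a table of 21939 genes. They are Hspa8, Hspa1a, Hspa1b, Dnajb1 and Hsph1 of the cytosolic HSP70 system, the cytosolic HSP90 genes Hsp90aa1 and Hsp90ab1, and the mitochondrial chaperones Hspd1, Hspe1 and Hspa9. All 10 passed the filter on low counts, as did 15127 genes in all. No measured value was a criterion of the choice, but it was made with earlier results of these data known. Their transcripts were counted in sequenced libraries of LT-HSCs, long-term haematopoietic stem cells, which are the rare cells that sustain blood formation over a lifetime.

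Bone marrow cells of C57BL/6 mice were sorted as negative for lineage markers, positive for Sca1 and cKit, and negative for CD34 and Flt3. The 9 libraries form 3 groups of 3: cells of young mice aged 10 to 16 weeks, cells of aged mice older than 80 weeks, and cells of aged mice of the same age range exposed to Rhosin at 100 µM (aged+Ri). Rhosin, abbreviated Ri in the labels, is a small molecule that inhibits the GTPase RhoA. Cells of all 3 groups, untreated ones included, spent 16 h in salt solution (HBSS) containing 10% serum, under 3% oxygen and 5% CO2, so every value below was measured after this incubation and not in freshly isolated cells. The labels call the libraries of a group biological replicates without saying how many mice each holds, and the p-values measure the spread between these libraries. They also give a sequencing batch. Batch 1 held aged 1 with aged+Ri 1, batch 2 held the second library of each group with aged+Ri 3, and batch 3 held young 3 with aged 3, while young 1 was split over batches 1 and 3.

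Library totals were 34358101 to 72503142 counts. The young libraries stood apart by the number of genes with a count, 20129 to 21213 against 15024 to 17987 in aged and 15117 to 16333 in aged+Ri libraries. Mitochondrially encoded transcripts made up 4.43% ± 0.273 of counts in young, 2.94% ± 0.522 in aged and 2.01% ± 0.507 in aged+Ri libraries (SD, n = 3 each). All 13 stem cell markers looked at, Kit, Procr, Hlf and Mecom among them, were above 3 counts in every library. In aged+Ri against aged cells 3 of the 13 had a log2 change above 0, with a median of -0.55. Over all genes tested the share above 0 was 47.2% and the median -0.06. The 15 neutrophil and monocyte markers summed to 1090 to 3743 CPM in young, 475.7 to 10470 in aged and 79 to 128.6 in aged+Ri libraries, where CPM are counts made comparable between libraries by TMM scaling. The 9 erythroid markers summed to 47 to 764.5 CPM in young, 14.9 to 73.4 in aged and 721.9 to 1526 in aged+Ri libraries, with Car1 at 0 in the last group. For 7 B cell markers the sums were 182.8 to 13490 CPM in young, 58.9 to 544.1 in aged and 65.9 to 135.7 in aged+Ri libraries. Iglc2 alone was at 13370 CPM in young 1. Transcripts of Cd34 and Flt3 were counted although the sort was negative for both proteins. Their sums were 29.8 to 96.7 CPM in young, 30.9 to 75.4 in aged and 8.7 to 34.6 in aged+Ri libraries.

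Heat shock proteins are chaperones that bind unfolded or partly folded polypeptides and release them in cycles driven by ATP. In the cytosol, J-domain proteins such as Dnajb1 deliver clients to HSP70 and stimulate its ATPase, nucleotide exchange factors such as Hsph1 reset it, and HSP90 completes the folding of kinases and hormone receptors. In the mitochondrial matrix, Hspa9 pulls in and folds imported proteins, and Hspd1 forms a barrel that Hspe1 closes as a lid. Part of the family is constantly expressed, and part is induced by heat shock factor 1 (HSF1), a transcription factor that binds repeated GAA and TTC units in promoters. Haematopoietic stem cells are known for low protein synthesis and for sensitivity to misfolded protein.

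The promoters are shown because HSF1 binds such units, and the genes of the set were not chosen by them. RefSeq windows of the build GRCm38.p6, from 250 bases before to 50 bases after a start site, were at hand for 6 of the 10 genes, in 9 windows. They were searched on both strands for 3 alternating units (GAANNTTCNNGAA or TTCNNGAANNTTC) and for 2 units (GAANNTTC or TTCNNGAA), the second being contained in the first. Of all 32851 windows, 198 (0.603%) held the longer motif and 4946 (15.1%) the shorter. The 150 bases before the RefSeq start of 3 genes are given 5′ to 3′ on the strand of the gene, with motif matches in capitals.
Hspa1a, chr17:34972157-34972306, minus strand: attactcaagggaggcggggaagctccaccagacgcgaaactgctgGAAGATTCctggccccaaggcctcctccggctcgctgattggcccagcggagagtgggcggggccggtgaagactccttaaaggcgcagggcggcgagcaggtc
Hspa1b, chr17:34959239-34959388, minus strand: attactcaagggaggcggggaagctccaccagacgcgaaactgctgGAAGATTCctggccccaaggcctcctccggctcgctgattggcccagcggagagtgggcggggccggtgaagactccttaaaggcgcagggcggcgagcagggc
Dnajb1, chr8:83608025-83608174, plus strand: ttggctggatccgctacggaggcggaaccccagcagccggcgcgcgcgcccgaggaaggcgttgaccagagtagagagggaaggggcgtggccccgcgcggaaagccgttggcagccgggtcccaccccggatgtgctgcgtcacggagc
The Hspa1a and Hspa1b sequences are the same at 149 of these 150 bases and at 296 of the 300 bases of the whole windows (98.7%), and both hold the 2-unit match GAAGATTC at -104 to -97 from the start, where the start is position 0. Neither of the 2 Dnajb1 windows held a match, which says only that these letters are not in them.

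Hspd1 and Hspe1 lie head to head on chromosome 1 (GRCm38), Hspd1 at 55077835 to 55088243 on the minus strand and Hspe1 at 55088132 to 55091307 on the plus strand, so that their 5′ ends overlap. A block of 18 bases with 4 alternating units lies 89 to 72 bases before the RefSeq start of Hspe1. It is inside the Hspd1 gene, within the annotated exons of Hspd1 transcripts.
Hspe1 strand: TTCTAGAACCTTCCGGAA
Hspd1 strand: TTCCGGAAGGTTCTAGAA
It holds 2 overlapping matches of the 3-unit motif. One of the 2 Hspd1 windows contains it, at -144 to -127, and the other holds no match. In the Hsph1 windows a 3-unit match, TTCTGGAAAGTTC, lies after the start, at 15 to 27 or at 36 to 48 by window, and a 2-unit match, TTCTCGAA, before it.

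Together the 10 genes took 0.2592% ± 0.0586 of all counts in young, 0.2718% ± 0.0553 in aged and 0.309% ± 0.0176 in aged+Ri libraries (SD, n = 3 each). The ranges overlapped, at 0.2157% to 0.3258%, 0.2291% to 0.3343% and 0.29% to 0.3248%. In bulk samples fewer cells with a transcript and less of it per cell cannot be told apart, here and throughout. Hspa8, Hsp90aa1 and Hsp90ab1 held most of these counts: Hspa8 alone made up 30.8% to 41.9% of the sum, Hsp90ab1 22.0% to 32.5% and Hsp90aa1 13.6% to 26.9%.

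Levels of different genes were compared as CPM per kilobase of annotated exons. In young cells the order was Hspa8 (235.2 ± 49.3), Hsp90ab1 (204.5 ± 38.3), Hspe1 (148.8 ± 33.5), Hsp90aa1 (114.9 ± 29.2), Hspa9 (36.6 ± 7.58), Dnajb1 (12.3 ± 2.11), Hspd1 (10.5 ± 7.18), Hsph1 (3.86 ± 3.35), Hspa1b (2.59 ± 4.36) and Hspa1a (0.118 ± 0.158). Only the steps from Hsp90aa1 to Hspa9 and from Hspa9 to Dnajb1 separated neighbours whose libraries did not overlap. In aged cells Hsp90ab1 stood first (239 ± 75.5), above Hspa8 (208.8 ± 61.9), with overlapping libraries. Hsp90aa1, Hspe1, Hspa9, Hspd1, Dnajb1 and Hsph1 followed, and Hspa1a (0.604 ± 1) and Hspa1b (0.555 ± 0.943) were last. Neighbours there were separate between Hspe1 and Hspa9, between Dnajb1 and Hsph1, and between Hsph1 and Hspa1a. In aged+Ri cells Hsp90ab1 (284.8 ± 18.8) and Hspa8 (252.7 ± 19.7) led, and Dnajb1 (41.4 ± 12.6) stood above Hspd1 (29.8 ± 6.87), with overlapping libraries. The separate neighbours in this group were Hspa8 and Hsp90aa1, Hspd1 and Hsph1, and Hsph1 and Hspa1b.

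**Figure D1:**
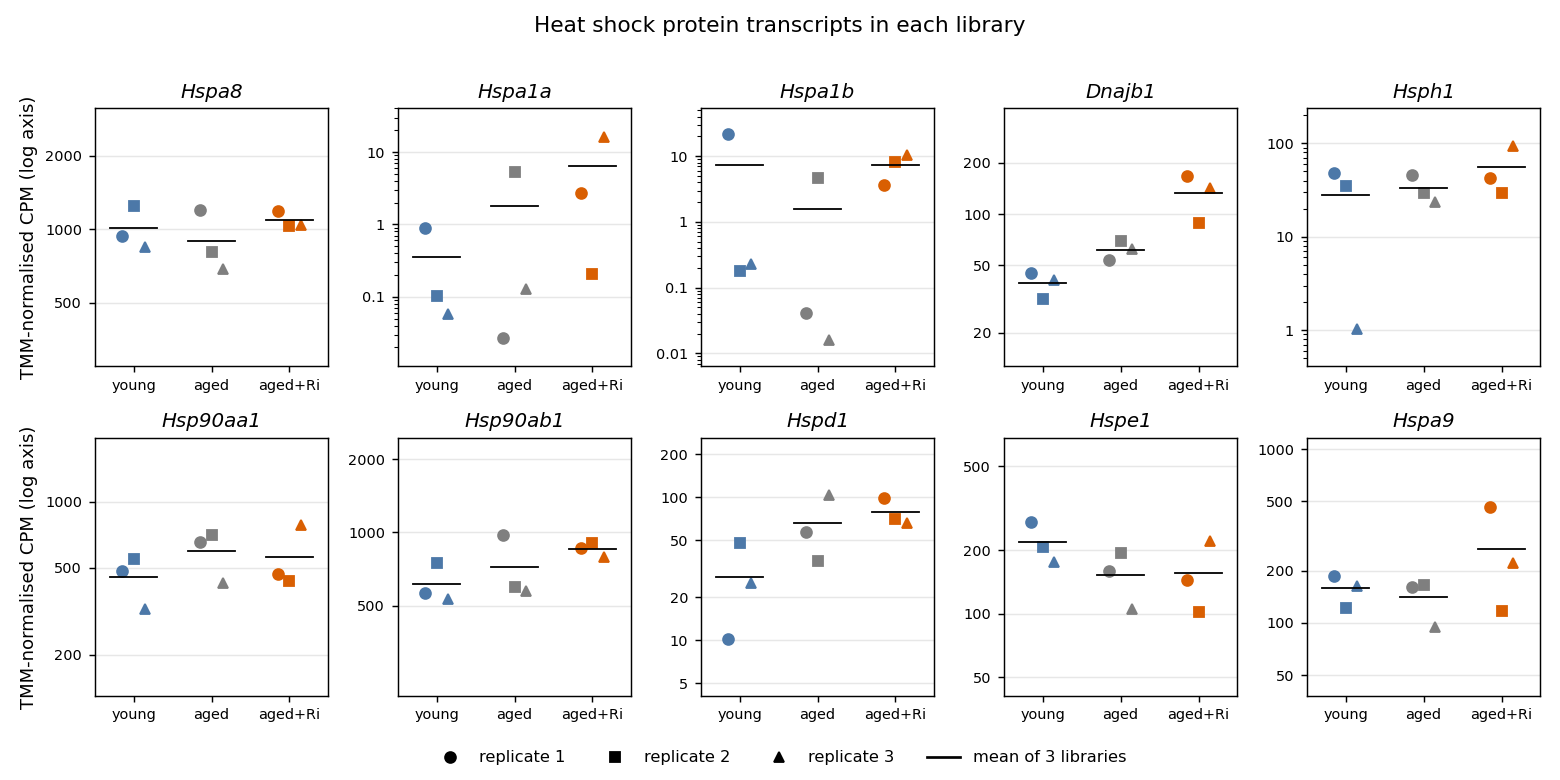
TMM-normalised CPM of each transcript (vertical log axis, a scale of its own in each panel) in the young, aged and aged+Ri groups; each symbol is 1 library, its shape the replicate number, and the bar the mean of 3 libraries. Dnajb1 sits at 31.8 to 45.1 CPM in young, 53.7 to 69.1 in aged and 88.5 to 167.6 in aged+Ri libraries, while Hspa1a and Hspa1b differ by orders of magnitude between libraries of 1 group.

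Dnajb1, the J-domain partner that hands clients to HSP70, was the 1 gene of the set to pass the test in any comparison, and it did so between aged+Ri and young cells. It was at 45.1, 31.8 and 40.8 CPM in the young libraries, at 53.7, 69.1 and 62.4 in the aged libraries, and at 167.6, 88.5 and 142.2 in the aged+Ri libraries. The 3 groups did not overlap, and every aged library lay between the young and the aged+Ri ones. From young to aged+Ri cells Dnajb1 rose by a log2 change of 1.76 ± 0.36 (SE, 95% interval 0.97 to 2.54; edgeR adjusted p = 0.0361), a 3.38-fold difference. Of all genes tested in this comparison, 1.45% passed, so 1 of 10 is a small count to read against the background. Separately, the step from young to aged was 0.65 ± 0.36 (edgeR unadjusted p = 0.0886, adjusted p = 0.370) and the step from aged to aged+Ri was 1.10 ± 0.36 (edgeR unadjusted p = 0.00853, adjusted p = 0.410), and neither passed.

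The Dnajb1 difference between aged+Ri and young cells was positive in all 19 alternative analyses, at 1.59 to 2.02 on the log2 scale, but passed the threshold in 9 of them, with edgeR, DESeq2 or limma adjusted p from 0.000182 to 0.157. It no longer passed without young 1 (edgeR adjusted p = 0.0688), young 2 (0.0721), aged 1 (0.0590), aged 2 (0.0608), aged 3 (0.0582), aged+Ri 1 (0.157) or aged+Ri 3 (0.154), nor with batch as a covariate (0.0915), with only the 2 groups compared (0.0852) or with young 1 alone for young cells (0.0819). In the batch covariate young 1 formed a level of its own, so that fit also left it out of the comparison with young cells. Within batches, which leave 1 or 2 libraries a group and no test, the aged libraries were above the young ones by 1.12 in batch 2 and by 0.61 in batch 3. The aged+Ri libraries were above the aged ones by 1.64 in batch 1 and by 0.70 in batch 2, and above the young one by 1.82 in batch 2. Of the marker sums given above, the neutrophil and monocyte sum was lower in all aged+Ri libraries than in all others, and the erythroid sum was higher in all aged+Ri than in all aged libraries but overlapped with young ones. Mitochondrially encoded transcripts took 4.14% to 4.68% of counts in young, 2.57% to 3.54% in aged and 1.57% to 2.56% in aged+Ri libraries, without overlap. What part the cell types or this share had in the level of Dnajb1 was not tested. Dnajb1 shares 0.441% of the 50-base windows of its transcript with any other gene, so few of its reads could be ambiguous.

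Hspa8, the constitutive cytosolic HSP70, showed no such order. Its levels were 934.1, 1251 and 849.4 CPM in young, 1197, 809.9 and 686.7 in aged, and 1184, 1034 and 1042 in aged+Ri libraries, and all groups overlapped. The log2 differences were -0.17 ± 0.27 for aged against young, 0.28 ± 0.27 for aged+Ri against aged and 0.10 ± 0.27 for aged+Ri against young (edgeR adjusted p = 0.801, 0.854 and 0.854). The 95% intervals, -0.76 to 0.41, -0.31 to 0.86 and -0.48 to 0.69, leave out a doubling or a halving in each case. Hspa8 shares 74.8% of its 50-base windows with other annotated genes, mainly copies, and whether such reads were counted for it is not given in the sources used here.

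Hspa1a and Hspa1b encode the stress-inducible HSP70 from neighbouring genes on chromosome 17 (GRCm38, 34969190 to 34972156 and 34956436 to 34959238, both on the minus strand). Hspa1a had 44, 4.17 and 2 estimated counts in young, 2.17, 288.8 and 8.08 in aged, and 96.6, 12.3 and 568.8 in aged+Ri libraries. Hspa1b had 1057, 6.67 and 8.5 counts in young, 3.17, 255.3 and 1.08 in aged, and 127.6, 466.3 and 365.4 in aged+Ri libraries. Outside the Rhosin group, Hspa1b was above 10 counts only in young 1 and aged 2, and Hspa1a likewise. In the aged+Ri group none of the libraries was below 127.6 counts of Hspa1b, and Hspa1a ranged from 12.3 to 568.8.

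The spread within groups left wide intervals for both genes. For Hspa1a the log2 differences were 2.34 ± 1.95, 1.82 ± 1.90 and 4.16 ± 2.10 in the order aged against young, aged+Ri against aged and aged+Ri against young (edgeR adjusted p = 0.577, 0.868 and 0.251). For Hspa1b they were -2.22 ± 1.95, 2.23 ± 1.95 and 0.01 ± 1.86 (edgeR adjusted p = 0.598, 0.825 and 0.998). The sign for Hspa1b between aged and young cells turned without young 1, to 2.97, and the sign for Hspa1a turned without aged 2, to -2.12. The 2 transcripts share 58.8% of the Hspa1a windows and 62.3% of the Hspa1b windows with each other, and 2 of 9 Hspa1a values and 0 of 9 Hspa1b values were whole numbers. How reads were divided between them is therefore uncertain, and Hspa1a also overlaps Gm20481 on the opposite strand. Summed into 1 row, they differed between aged and young cells by -1.19 (log2).

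The inducible and constitutive HSP70 transcripts were also set against each other within a library, which needs no scaling between libraries. Hspa1a and Hspa1b together came to 2.38%, 0.0221% and 0.0353% of the Hspa8 count in young, to 0.00609%, 1.21% and 0.0212% in aged, and to 0.531%, 0.800% and 2.53% in aged+Ri libraries. None of the 3 aged+Ri libraries was among the 4 lowest, and young 1 lay between the second and the highest of them. On the log2 scale the means were -9.67 ± 3.72, -10.9 ± 3.99 and -6.61 ± 1.17 (SD, n = 3 each). For this ratio exact two-sided permutation tests gave p = 0.5 for aged against young and p = 0.3 for each comparison with aged+Ri (0.7, 0.675 and 0.675 adjusted over 9 ratio tests), in a design whose smallest p is 0.1.

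Hsph1, an HSP110 that acts as a nucleotide exchange factor for HSP70, was at 48.2, 34.8 and 1.03 CPM in young, 46.4, 29.5 and 23.6 in aged, and 42.2, 29.6 and 94.9 in aged+Ri libraries. Young 3, with 36 counts, was far below the other 8 libraries, and aged+Ri 3 was the highest. The log2 differences were 0.24 ± 0.88, 0.74 ± 0.88 and 0.99 ± 0.89 (edgeR adjusted p = 0.926, 0.899 and 0.530, in the same order). Leaving out young 3 gave -0.31 between aged and young cells and 0.43 between aged+Ri and young cells. Leaving out aged+Ri 3 gave 0.08 between aged+Ri and aged cells and 0.31 between aged+Ri and young cells.

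Hsp90aa1 is the stress-inducible and Hsp90ab1 the constitutive cytosolic HSP90. Hsp90aa1 was at 481.1, 548.5 and 324.9 CPM in young, 657.5, 703.4 and 423.5 in aged, and 468.5, 435.5 and 781.1 in aged+Ri libraries, with overlap between all groups. Its log2 differences were 0.40 ± 0.32, -0.08 ± 0.32 and 0.32 ± 0.32 (edgeR adjusted p = 0.566, 0.982 and 0.590). Hsp90ab1 was at 563.3, 744.7 and 531.6 CPM in young, 977.9, 596.4 and 576.2 in aged, and 861.2, 906.2 and 794.5 in aged+Ri libraries. All 3 aged+Ri libraries were above all 3 young ones, and the difference of 0.48 ± 0.28 did not pass (95% interval -0.12 to 1.07; edgeR adjusted p = 0.313). For aged against young and aged+Ri against aged it was 0.23 ± 0.28 and 0.25 ± 0.28 (edgeR adjusted p = 0.731 and 0.878).

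The count of the inducible HSP90 came to 85.4%, 73.7% and 61.1% of that of the constitutive one in young, to 67.2%, 118% and 73.5% in aged, and to 54.4%, 48.1% and 98.3% in aged+Ri libraries. The constitutive transcript thus had more counts in 8 of the 9 libraries, aged 2 being the exception. Mean log2 ratios were -0.46 ± 0.242, -0.26 ± 0.436 and -0.653 ± 0.552 (SD, n = 3 each), and exact two-sided permutation tests gave p = 0.7, 0.4 and 0.7 in the order of comparisons used above (0.7 adjusted in each case). Hsp90aa1 shares 58.5% of its 50-base windows with other genes and Hsp90ab1 4.49%.

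**Figure D2:**
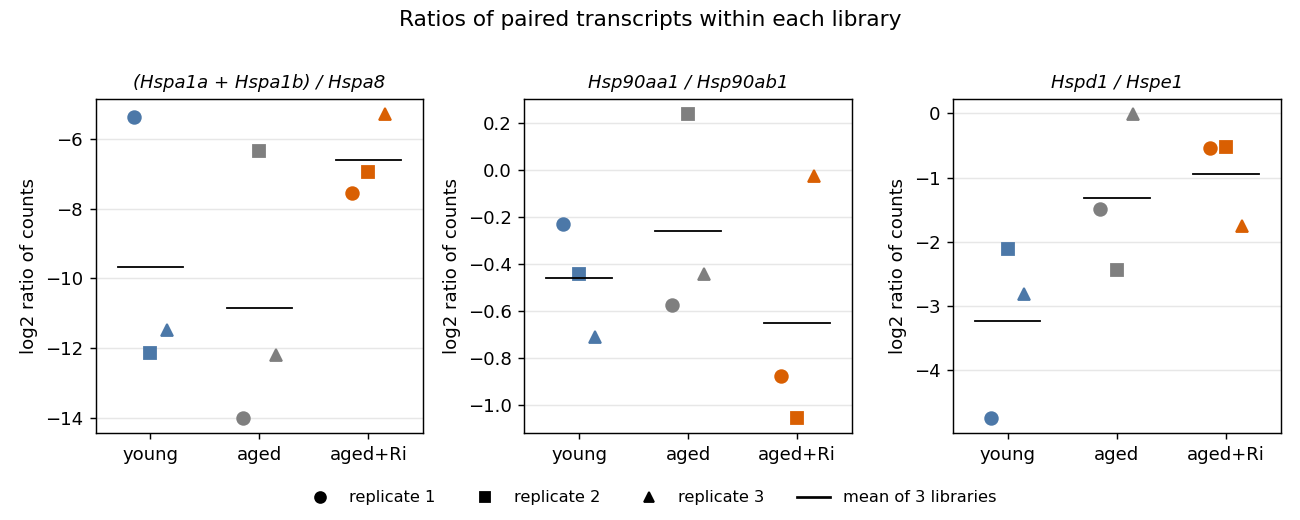
Log2 ratio of the counts of 2 related transcripts within each library (vertical axis), for inducible against constitutive HSP70, inducible against constitutive HSP90, and Hspd1 against Hspe1; each symbol is 1 library and the bar the mean of 3. The Hspd1 to Hspe1 ratio is above every young library in all 3 aged+Ri libraries, and the HSP70 ratio of young 1 lies with those of the aged+Ri group.

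Among the mitochondrial chaperones, Hspd1 and Hspe1 form 1 folding machine from genes that face each other, and their transcripts did not move together across these libraries. Hspd1 was at 10.2, 47.9 and 25.1 CPM in young, 56.9, 35.7 and 104.4 in aged, and 99.4, 70.7 and 65.8 in aged+Ri libraries. Hspe1 was at 273.4, 207.7 and 176.8 CPM in young, 160.5, 193.7 and 105.7 in aged, and 144.9, 102 and 222 in aged+Ri libraries. The library with the most Hspe1, young 1, had the least Hspd1, and the library with the most Hspd1, aged 3, was next to lowest in Hspe1. As a description over the 9 libraries, which include group differences, Pearson's r between their log2 CPM was -0.73 and Spearman's rho -0.72, the lowest among the 45 pairs of the 10 genes, of which 39 had a positive r.

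For Hspd1 the log2 differences were 1.25 ± 0.55 for aged against young (edgeR unadjusted p = 0.0423, adjusted p = 0.289), 0.26 ± 0.55 for aged+Ri against aged (adjusted p = 0.957) and 1.51 ± 0.56 for aged+Ri against young (unadjusted p = 0.0180, adjusted p = 0.140). The aged+Ri libraries were all above the young ones, the aged libraries were not. Without young 1, the lowest library, these differences with young were 0.76 and 1.02, and without aged 3 the first was 0.71. Between aged and young libraries of 1 batch the difference was -0.42 in batch 2 and 2.06 in batch 3. When young 1 alone stood for young cells, an analysis chosen after the data were seen, Hspd1 passed against aged (2.75; edgeR adjusted p = 0.0400) and against aged+Ri cells (3.01; edgeR adjusted p = 0.0180).

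Hspe1 differed in the other direction or hardly at all, by -0.52 ± 0.36, 0.03 ± 0.36 and -0.49 ± 0.36 (edgeR adjusted p = 0.490, 0.996 and 0.434). There were 0.0373, 0.231 and 0.142 counts of Hspd1 per count of Hspe1 in the young libraries, 0.355, 0.184 and 0.988 in the aged libraries, and 0.686, 0.694 and 0.297 in the aged+Ri libraries. The mean log2 ratio was -3.23 ± 1.36 in young, -1.32 ± 1.22 in aged and -0.942 ± 0.703 in aged+Ri cells (SD, n = 3 each). Exact two-sided permutation tests gave p = 0.2 for aged against young, p = 0.7 for aged+Ri against aged and p = 0.1, the smallest the design allows, for aged+Ri against young (0.675, 0.7 and 0.675 adjusted over 9 ratio tests).

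Both transcripts have processed copies in the genome. Hspd1 shares 44.8% of its 50-base windows with other genes, mainly the pseudogene Hspd1-ps3, and Hspe1 also 44.8%, of which 8.69% of its windows are shared with Hspd1 itself across their overlap. Strand is not stated to have been used in counting, so reads from the overlapping 5′ ends cannot be assigned to 1 gene.

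Hspa9, the mitochondrial HSP70 that drives protein import and also takes part in iron-sulphur cluster assembly, was at 187, 122.4 and 163.4 CPM in young, 160.9, 165.4 and 94.9 in aged, and 464.1, 116.3 and 220.3 in aged+Ri libraries. Aged+Ri 1 was above every other library by a factor of more than 2, and aged+Ri 2 was below all but 1. The log2 differences were -0.17 ± 0.44, 0.93 ± 0.44 and 0.76 ± 0.44 (edgeR adjusted p = 0.895, 0.564 and 0.314). Leaving out aged+Ri 1 brought that between aged+Ri and aged cells to 0.26 and that between aged+Ri and young cells to 0.13. Within batches, aged+Ri against aged was 1.53 in batch 1 and -0.05 in batch 2.

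**Figure D3:**
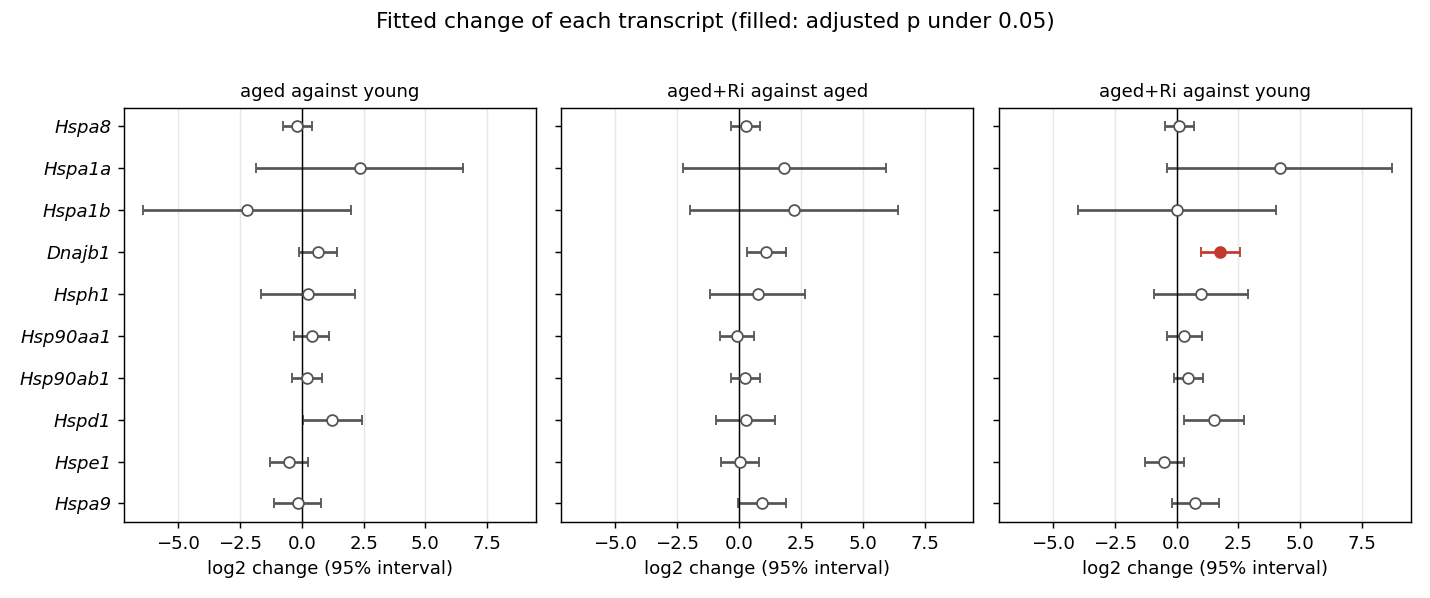
Fitted log2 change of each transcript with its 95% interval (horizontal axis) in the 3 comparisons; a filled symbol marks an edgeR adjusted p under 0.05. Only Dnajb1 between aged+Ri and young cells is filled, and the intervals of Hspa1a and Hspa1b span several log2 units.

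Across the set, 0 of 10 genes passed in aged against young, where 0.0331% of all genes did, by edgeR's quasi-likelihood test. At an unadjusted p under 0.05 there was 1, Hspd1, against 16.2% of all genes, and DESeq2 and limma-voom each called 0. In aged+Ri against aged 0 of 10 passed, with 0% of all genes, and 1, Dnajb1, was under an unadjusted p of 0.05, against 9.14% of all genes. DESeq2 and limma-voom called 0 there also. In aged+Ri against young 1 of 10 passed by edgeR, by DESeq2 and by limma-voom, and 2, Dnajb1 and Hspd1, were under an unadjusted p of 0.05, against 23.4% of all genes. There edgeR called 219, DESeq2 1862 and limma-voom 644 of all 15127 genes tested.

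Genes with all 3 libraries of 1 group above all 3 of the other numbered 1 of 10 in aged against young (Dnajb1, where 8.58% of all genes tested were higher without overlap), 1 of 10 in aged+Ri against aged (Dnajb1, 7.87%) and 3 of 10 in aged+Ri against young (Dnajb1, Hsp90ab1 and Hspd1, 12.4%). None of the 10 was lower without overlap, where 16.1%, 8.66% and 19.9% of all genes were. The median log2 change of the 10 genes was 0.23 in aged against young, with 6 above 0, while the median of all genes tested was -0.13, with 45.3% above 0. For aged+Ri against aged the median was 0.51 with 9 of 10 above 0, beside -0.06 and 47.2% for all genes. For aged+Ri against young it was 0.62 with 9 of 10 above 0, beside -0.24 and 42.6%. With single libraries left out the first of these medians ranged from -0.04 (without aged 1) to 0.56 (without young 1). The second was 0.25 without aged+Ri 1 and 0.27 without aged+Ri 3, and the third 0.39 without aged+Ri 3 and 0.94 without young 1. The comparisons share libraries, so these values are not independent of each other.

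The other genes of the chaperone network were read from lists by role, and unadjusted counts are given in the order aged against young, aged+Ri against aged and aged+Ri against young. Over all 15127 genes tested, 16.2%, 9.14% and 23.4% were under an unadjusted p of 0.05 with edgeR, in that order. DESeq2 called 744, 320 and 1862 of the 15127 genes, and limma-voom 18, 55 and 644. Of the 6 heat shock factors and regulators, 0 passed edgeR's test in any comparison, and 1, 1 and 3 were under an unadjusted p of 0.05. Hsf1, the main activator of the heat shock genes, was at 11.2, 12.8 and 22.9 CPM in young, 28.7, 22.2 and 24.5 in aged, and 51.2, 19.5 and 37.3 in aged+Ri libraries. Aged and young libraries overlapped, and the difference between aged+Ri and young cells was 1.20 ± 0.55 (edgeR adjusted p = 0.204). Hsf2, a second heat shock factor, was at 8.51 ± 2.02, 2.68 ± 1.23 and 7.29 ± 2.65 CPM in young, aged and aged+Ri cells (SD, n = 3 each). Its aged libraries were all below those of both other groups, and neither difference passed (edgeR adjusted p = 0.372 and 0.685), while DESeq2 called it lower in aged than in young cells. Hsf2bp, a binding partner of Hsf2, was at 0.98 ± 0.942, 2.08 ± 2.27 and 0.0094 ± 0.0163 CPM, and Hsf5, a further factor of the family, at 2.51 ± 1.92, 0.101 ± 0.148 and 0.0188 ± 0.0163 CPM. Both were thus lowest, and below the level of 3 counts, in aged+Ri cells and did not pass with edgeR. DESeq2 called Hsf2bp lower in aged+Ri than in aged and in young cells and Hsf5 lower in aged+Ri than in young cells, and limma-voom called 0 of the 6.

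Of 7 other cytosolic HSP70 family genes 0 passed with edgeR, DESeq2 or limma-voom, and 1, 0 and 0 were under an unadjusted p of 0.05 with edgeR. Of 16 J-domain partners of cytosolic HSP70, 0 passed edgeR's test, and 2, 3 and 2 were under an unadjusted p of 0.05. Hspa4, an HSP110 like Hsph1, was at 184.4 ± 17.8, 104.9 ± 33 and 118.4 ± 22.6 CPM in young, aged and aged+Ri cells, with the young libraries above all others (edgeR adjusted p = 0.260 for aged and 0.260 for aged+Ri against young). Dnaja1, a J-domain protein of the cytosol, was at 302.9, 277.1 and 273.2 CPM in young, 204.3, 248.3 and 274.7 in aged, and 481.2, 353.5 and 424.5 in aged+Ri libraries. All aged+Ri libraries were above all others, with a difference from aged of 0.79 ± 0.26 (edgeR unadjusted p = 0.00963, adjusted p = 0.415). Dnaja2 followed the same order against aged cells, 0.82 ± 0.31 (edgeR adjusted p = 0.451). Dnaja4, a less abundant relative, was at 5.62, 4.53 and 5.48 CPM in the aged+Ri libraries and at most 0.202 CPM in the other 6. Its difference did not pass with edgeR (adjusted p = 0.280 against aged and 0.1 against young cells), and DESeq2 and limma-voom both called it higher in aged+Ri than in each of the other groups.

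Of the 9 nucleotide exchange and other HSP70 co-factors 0 passed edgeR's test, with 2, 0 and 3 under an unadjusted p of 0.05, and of the 20 HSP90 co-chaperones 0 passed, with 5, 2 and 5. In aged+Ri against young cells DESeq2 called 2 of the co-factors, Bag5 and St13, and 3 of the co-chaperones, Stip1, Cdc37 and Ahsa2, and limma-voom called St13, Stub1, Stip1 and Cdc37. Over all 15127 genes tested in that comparison, DESeq2 called 1862 and limma-voom 644. In aged against young cells DESeq2 called St13 lower. Bag5, a nucleotide exchange factor, was at 20.7 ± 5.49 CPM in young, 45.6 ± 27.8 in aged and 103.9 ± 55.8 in aged+Ri cells, a log2 difference of 2.33 ± 0.58 between the first and the last (edgeR adjusted p = 0.0614). St13, which links HSP70 with HSP90, had the opposite order, at 242.5 ± 47.9, 131.2 ± 13.7 and 116.3 ± 13.4 CPM (-1.06 ± 0.29; edgeR adjusted p = 0.0779). Stip1, the adaptor that passes clients from HSP70 to HSP90, was at 8.11, 37.1 and 13.6 CPM in young, 47.3, 37.8 and 51.8 in aged, and 120.5, 76.4 and 77.4 in aged+Ri libraries. As for Dnajb1, its 3 groups did not overlap, with 2.22 ± 0.54 between aged+Ri and young cells (edgeR adjusted p = 0.0579). Cdc37, which brings kinases to HSP90, differed by 1.90 ± 0.47 (edgeR adjusted p = 0.0617), from 27.3 ± 16.4 to 102.1 ± 13.2 CPM.

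Of 5 small heat shock proteins tested, out of 8 listed, 0 passed edgeR's test, with 1, 1 and 2 under an unadjusted p of 0.05, and DESeq2 called 2, Hspb1 and Hspb6, higher in aged+Ri than in young cells and Hspb6 higher in aged than in young cells. Hspb1, the most abundant of those named, was at 4.63, 6.86 and 10.5 CPM in young, 27.5, 11.2 and 5.95 in aged, and 35.4, 43.0 and 61.4 in aged+Ri libraries. All aged+Ri libraries were above all others, by 1.65 ± 0.65 against aged (edgeR adjusted p = 0.471) and by 2.67 ± 0.67 against young cells (edgeR adjusted p = 0.0653).

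Of 18 mitochondrial partners and proteases 1, Clpp, passed edgeR's test, in aged+Ri against young cells, with 1, 1 and 4 under an unadjusted p of 0.05. In that comparison limma-voom called 1, Clpp, and DESeq2 called 2, Clpp and Dnajc19. Clpp, the peptidase of the matrix, was at 32.3, 37.4 and 116.7 CPM in young, 234.4, 170.8 and 154.3 in aged, and 357.5, 200.7 and 276.8 in aged+Ri libraries. It rose by 2.16 ± 0.47 from young to aged+Ri cells (edgeR adjusted p = 0.0432), and its difference from young was 1.59 ± 0.46 in aged cells (edgeR adjusted p = 0.193). Grpel1, the nucleotide exchange factor of Hspa9, was at 140 ± 52.8, 212.7 ± 39.4 and 280.9 ± 97.5 CPM and did not pass with edgeR (adjusted p = 0.416 in aged and 0.131 in aged+Ri against young cells). Dnajc19, a J-domain protein of the import motor, was at 274.5 ± 69.5, 232.5 ± 67.8 and 135.3 ± 21.2 CPM and did not pass with edgeR (adjusted p = 0.101 for aged+Ri against young), while DESeq2 called it lower in aged+Ri than in young cells.

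Among 12 other genes known to be induced by HSF1, 1 passed edgeR's test, again in aged+Ri against young cells, and 2, 5 and 5 were under an unadjusted p of 0.05. Ubb, which encodes polyubiquitin, was at 2493, 1576 and 2895 CPM in young, 4877, 6105 and 7018 in aged, and 8973, 6193 and 10270 in aged+Ri libraries. It rose by 1.87 ± 0.29 from young to aged+Ri cells (edgeR adjusted p = 0.0160), with 1.37 ± 0.28 between aged and young (edgeR adjusted p = 0.129). Sqstm1, an autophagy receptor for ubiquitinated protein, and Hmox1, haem oxygenase, both also targets of NRF2, had 878.7 ± 313 and 838.2 ± 209 CPM in aged+Ri against 376.8 ± 110 and 116.6 ± 118 in aged cells (edgeR adjusted p = 0.346 and 0.425). DESeq2 and limma-voom called Hmox1 higher in aged+Ri than in aged and in young cells, and DESeq2 called Ubb higher in aged than in young cells. Of the 12 genes, 11 were above 0 in aged+Ri against aged cells, with a median log2 difference of 1.01, 5 in aged against young, with a median of -0.20, and 10 in aged+Ri against young, with a median of 0.94. Over all genes tested the shares above 0 were 47.2%, 45.3% and 42.6% and the medians -0.06, -0.13 and -0.24, in the order of that sentence.

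**Figure D4:**
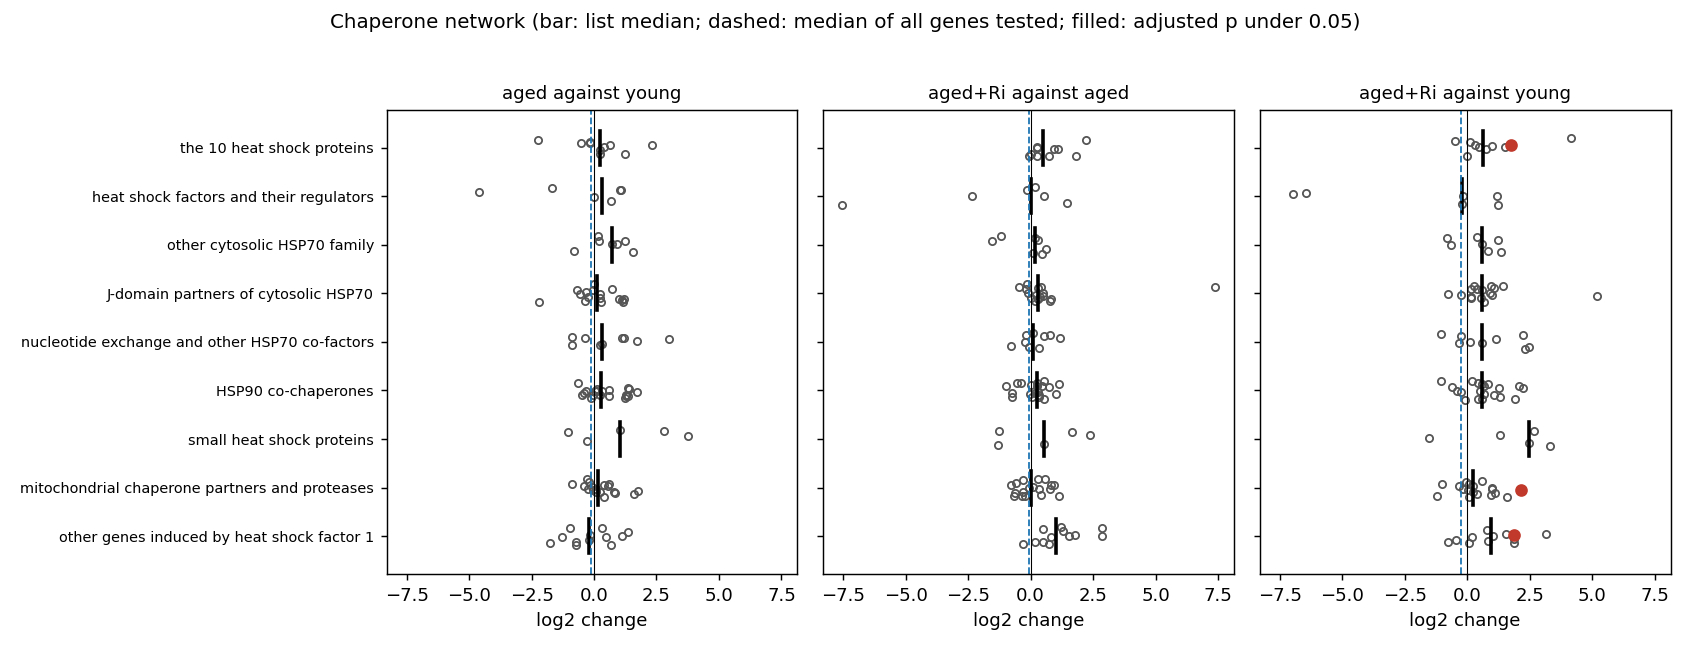
Fitted log2 change (horizontal axis) of each tested gene of the 10 heat shock proteins and of the lists of the chaperone network, in the 3 comparisons; the black bar is the median of the list, the dashed line the median of all genes tested, and a filled symbol marks an edgeR adjusted p under 0.05. The 3 filled symbols are Dnajb1, Clpp and Ubb, all in aged+Ri against young cells.

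The genes whose pattern was most like that of the set were ranked by Pearson's r, over the 9 libraries, between their log2 CPM and the mean of the standardised log2 CPM of the 10 genes. Among 9528 other genes of at least 5 mean CPM, the highest were Bend4 (r = 0.93), Tgif2 (0.93), Gemin2 (0.92), Pdhx (0.92) and Afdn (0.91), and the points share groups, batches and depth. The mean profile itself was lowest in young 3 (-0.95 standard deviations) and aged 3 (-0.72) and highest in aged+Ri 3 (0.91) and aged+Ri 1 (0.74). The 2 lowest of the 9 were thus both of batch 3, and no aged+Ri library was in batch 3. Young 1, sequenced partly in batch 3, was at -0.07. What part the batch had in the profile was not tested. Bend4 was likewise lowest in young 3 and aged 3, at 1.74 and 3.64 CPM, and highest in aged+Ri 1 and aged+Ri 3, at 102.8 and 43.0 CPM, the upper 2 being in the other order than in the profile.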

How the data were processed

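RNA was sequenced from 9 libraries of sorted LT-HSCs, prepared with the SMART-Seq v4 kit followed by Nextera XT, per the labels' protocols. The authors deposited 1 table of estimated counts per gene and library. By library, 71.62% to 80.92% of them are whole (tolerance 0.005). Per the submitters' processing notes, the tools were STAR 2.7.0, cutadapt 1.18, featureCounts, SAMtools 1.14 and R 4.2.0, and the build was GRCm38. The handling of reads that map to several genes and of strand is not given in the sources used here.

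Estimated counts were rounded to whole numbers and filtered with filterByExpr, which kept 15127 of 21939 genes. They were scaled by TMM and fitted as 3 group means in 1 quasi-likelihood model (edgeR 4.0.16, limma 3.58.1, R 4.3.3), with 6 residual degrees of freedom before moderation. Tests were two-sided F-tests with Benjamini-Hochberg adjustment over all genes tested and a threshold of 0.05. CPM are TMM-normalised means ± SD, log2 CPM used a prior count of 2, and the SE is the log2 change divided by the square root of F. Ratios of the unrounded counts, with nothing added, were compared by exact permutation over 20 assignments. Ratios of rounded counts with 0.5 added were tried as an alternative. Positions and exon lengths come from GENCODE M21 (GRCm38), which held 21538 of the symbols, and promoters from RefSeq. No 2 libraries of the same group agreed within sampling noise. At these totals 3 counts correspond to 0.041 to 0.0855 CPM.

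The 10 genes, the lists by role and the markers were chosen with earlier results of these data known. Named in the text were the 10 genes, list genes past the threshold, up to 4 per list with the smallest unadjusted p of a comparison, and the 5 most alike genes, except some items that are not reported here; Hsf1, Dnaja1 and the other list genes come from this rule. Tried in place of these settings were limma-voom with sample weights, DESeq2 1.42.0 and its size factors alone, edgeR's newer quasi-likelihood method, a stricter filter (10 counts in each library of a group and 5 mean CPM) or none, a fit of 2 groups, a block for the replicate number, a covariate for the batch, both Hspa1 genes summed, and each library left out. Young 1 as the only young library was tried after its values were known. The fit was tested on simulated data.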

Additional observations from a re-analysis of the deposited data

How the results depend on the processing

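The direction and the side of the threshold were kept in 516 recomputed log2 changes of single genes, the sign turned in 34, and 10 fell below and 2 passed above the threshold. Of the 10 genes, 0 passed in aged+Ri against aged under any alternative run, and 1, Dnajb1, passed in aged+Ri against young with every alternative other than only the 2 groups compared (0), the batch as a covariate (0), leaving out libraries (0 to 1) and young 1 as the only young library, where Dnajb1 was lost and Hspd1 passed. In aged against young 1 passed with young 1 as the only young library (Hspd1) and 0 otherwise. With group means removed, the same-numbered libraries of different groups correlated at -0.091 to 0.111. With 3 libraries a group this does not settle whether the numbers pair them, and the labels do not say. With the replicate number as a block 0, 0 and 1 of the 10 passed, as without it, and 6, 2 and 226 of all genes. Over all genes, calls in the 3 comparisons were 5, 0 and 219 with edgeR, 744, 320 and 1862 with DESeq2, 18, 55 and 644 with limma-voom, 21, 5 and 463 with edgeR's newer method, 20, 11 and 291 without a filter, 1, 2 and 57 with only the 2 groups, and 18 to 532 in the last comparison when leaving out libraries. Signs that turned belong to small or scattered differences. With libraries left out, aged against young ranged over -7.82 to 2.97 for Hspa1b, -2.12 to 4.47 for Hspa1a, -0.40 to 0.085 for Hspa8, -0.31 to 0.75 for Hsph1, -0.032 to 0.46 for Hsp90ab1 and -0.27 to 0.10 for Hspa9. For aged+Ri against aged the ranges were -0.45 to 0.082 for Hsp90aa1, -0.040 to 0.74 for Hspd1, -0.37 to 0.27 for Hspe1 and -0.41 to 6.31 for Hspa1a. For aged+Ri against young they were -0.030 to 0.35 for Hspa8, -0.55 to 5.11 for Hspa1b and -0.043 to 0.56 for Hsp90aa1. Log2 ratios ranged over -0.049 to 0.36 (aged against young) and -0.51 to 0.0083 (aged+Ri against young) for Hsp90aa1 to Hsp90ab1, over -3.43 to 0.95 (aged against young) for Hspa1a plus Hspa1b to Hspa8, and over -0.19 to 1.03 (aged+Ri against aged) for Hspd1 to Hspe1. The batch covariate gave young 1 a level of its own, which left that library out of the differences from young cells. With the batch as a covariate, signs turned for Hspa1b (0.68) and Hsp90ab1 (-0.0043) in aged against young, Hsph1 (-0.31) and Hspe1 (-0.12) in aged+Ri against aged, and Hspa8 (-0.26) in aged+Ri against young. With young 1 as the only young library they turned for Hspa8 (0.0071) and Hsph1 (-0.48) in aged against young and Hspa1b (-1.49) in aged+Ri against young. Hspe1 was at -0.015 in aged+Ri against aged without a filter, and the 2 Hspa1 genes summed gave -1.19 in aged against young. The value for Hspa1b in aged+Ri against young, 0.010, became -0.046 with DESeq2 size factors and with DESeq2, -0.10 with the stricter filter, -0.018 with only the 2 groups and -0.088 with the newer method. The causes were not tested. With 3 libraries a group, differences as small as those of Hspa8 were not detectable, and much larger ones could be missed. On simulated data with 40 genes per fold change, 2.5% of doublings, 17.5% of 4-fold and 67.5% of 8-fold rises passed in aged+Ri against young. For aged+Ri against aged 0%, 20% and 67.5% passed. The changed genes were drawn from all those above 5 mean CPM, and the remaining genes had no group difference. These rates are therefore not rates for the 10 genes themselves. Hspa1a and Hspa1b at 1 to 10 counts in several libraries cannot be followed.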
